A study of Homo sapiens with 25 samples.

Results

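The genes described here encode 9 subunits of the transcription factor AP-1 and its small MAF relatives, namely FOS, FOSB, FOSL1 and FOSL2 of the FOS family, JUN, JUNB and JUND of the JUN family, and the small MAF proteins MAFF and MAFG. They were found by symbol: every probe set annotated to 1 of these symbols and to no other gene was used, which gave 21 of the 54613 probe sets on the array. The probe set with the highest mean over all 25 arrays stands for its gene, and all 9 genes were among the 12643 tested of 19775 represented. Transcript levels had been measured on Affymetrix arrays in 3 human tumour lines around addition of erlotinib, an inhibitor of the EGFR kinase, so the comparisons ask how these genes differ after the inhibitor from their level at its addition. BT20, a breast cancer line rich in EGFR, was sampled at 0 min (4 arrays), 30 min, 6 h and 24 h (3 arrays each). MDA-MB-453, a breast cancer line rich in ERBB2, and a line labelled only MCF were sampled at 24 h and at 0 min (3 arrays each). Every group, 0 min included, is labelled with erlotinib at 10 µM. All cells grew in medium with 10% serum and had adhered for 24 h before the drug was added. No culture without drug was sampled at 6 h or 24 h, so drug and time in culture cannot be told apart. The labels do not say whether replicates were separate cultures, and p-values then measure only the spread between these samples.

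AP-1 is a dimer of basic leucine zipper proteins. JUN proteins pair with themselves or with FOS proteins and bind DNA sites known as TRE and CRE elements, and the small MAF proteins, which lack an activation domain of their own, pair with CNC proteins such as NFE2L2. FOS, FOSB, JUN and JUNB are textbook immediate early genes, and FOSL1 (FRA-1) is known for its dependence on ERK signalling, which EGFR activates in epithelial cells.

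EGFR averaged 12.2 log2 units in BT20, 3.55 in MDA-MB-453 and 3.03 in MCF. ERBB2, the receptor partner of EGFR, had means of 11.1 in MDA-MB-453, 8.46 in BT20 and 6.54 in MCF. ESR1, the estrogen receptor, had means of 12.6 in MCF, 8.83 in BT20 and 2.66 in MDA-MB-453, while its target TFF1 had means of 13.4 in MCF, 8.59 in MDA-MB-453 and 2.70 in BT20. Because MCF is not a full line name, its levels could not be checked against a label. Of the markers of other cells, both leukocyte markers, PTPRC and CD3E, stayed under log2 4 in all groups, the level also used to decide which genes were tested. Of the fibroblast markers 1 of 4, COL1A1, was above that level in every line. The endothelial marker CDH5 averaged 11.0 in BT20. Of the 3 endothelial markers 2 were above log2 4 at 24 h and 1 at 0 min in BT20, with summed levels of 18.95 to 19.11 at 24 h, against 16.60 to 19.20 at 0 min, and their part in the results was not tested. The BT20 0 min array of replicate 4 stood apart. Across all genes it correlated at 0.990 to 0.992 with the 6 h arrays and at 0.971 to 0.975 with the other 0 min arrays, while arrays within the 30 min, 6 h and 24 h groups of BT20 correlated at 0.994 to 0.999. BT20 changes are therefore given against all 4 arrays, without replicate 4 and, at 6 h, against replicate 4 alone. The BT20 comparisons share their 0 min arrays and are not independent of each other. In bulk RNA, fewer cells of a type and less RNA per cell cannot be told apart.

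In BT20, FOSL1 was lower by far than any other subunit gene at 6 h and 24 h, MAFF and JUN were lower by smaller amounts, and JUNB, JUND, FOSB and MAFG were higher at 24 h. None of the 9 genes passed the test at 30 min, 4 did at 6 h and 7 at 24 h, with a Benjamini-Hochberg adjusted p under 0.05 in a linear model fitted to the BT20 arrays with limma. Of all genes tested, 0.00791% were called at 30 min, 52% at 6 h (26.1% higher, 25.9% lower) and 42.4% at 24 h (24.1% higher, 18.3% lower). The share of subunit genes called at 6 h was thus close to that of all genes. The plot of levels on the single arrays shows all 9 genes.

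**Figure D1:**
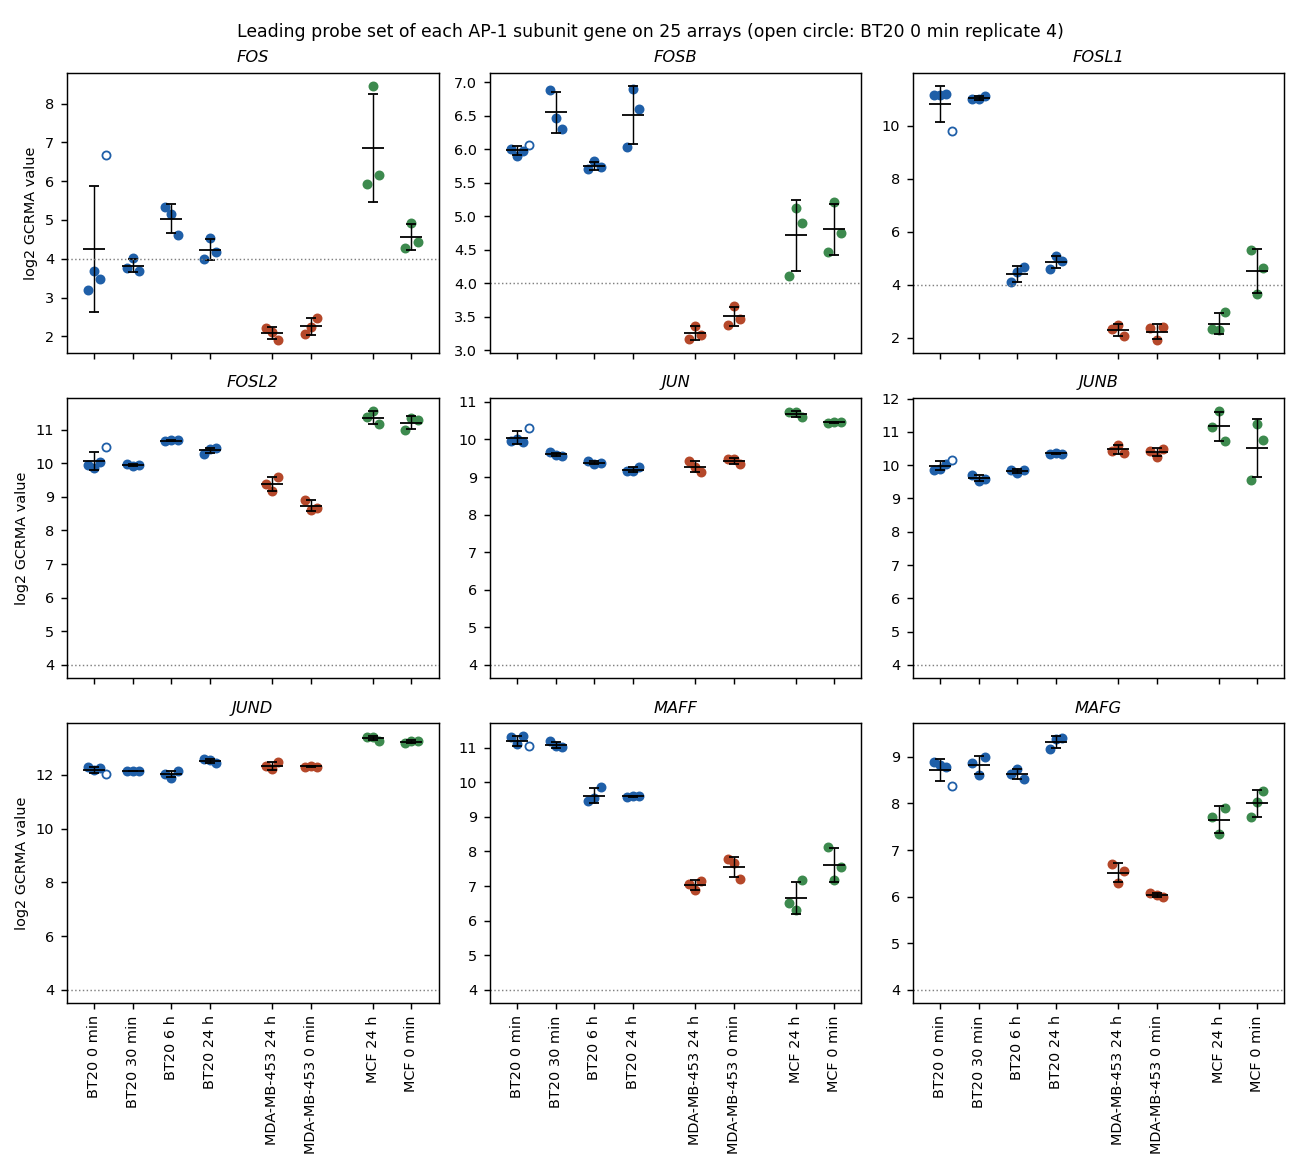
Level of the leading probe set of each gene (log2 GCRMA value, vertical axis) in the 8 groups, with 1 point per array, group mean and SD, and a dotted line at log2 4. FOSL1 sits above 9.8 on every BT20 array of 0 min and 30 min and under 5.1 at 6 h and 24 h, and the open circle of replicate 4 stands apart for FOS and FOSL1.

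FOSL1, on chromosome 11 (65892049 to 65900545, GRCh38.p14), encodes FRA-1, a FOS protein without the C-terminal activation domain of FOS itself. Its probe set read 11.15, 11.15, 11.20 and 9.81 log2 units on the BT20 arrays of 0 min, in replicate order, and 11.02, 11.02 and 11.14 at 30 min. At 6 h it read 4.08, 4.46 and 4.68, and at 24 h 4.61, 5.07 and 4.88. The 6 h and 24 h arrays all lie far below every array of the earlier times, and replicate 4 of 0 min is the lowest of its group yet still well above them. The change was -6.42 ± 0.29 at 6 h (SE, adjusted p = 5.17e-08), 85.6-fold lower, and -5.98 ± 0.29 at 24 h (adjusted p = 1.75e-08), 63.1-fold lower. Without replicate 4 the changes were -6.76 and -6.32. Against replicate 4 alone, the 6 h change was -5.40 ± 0.20 (adjusted p = 1.87e-08), 42.3-fold lower. The later levels lie close to log2 4.

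FOS, on chromosome 14 (75278828 to 75282230), is the founding member of the family. Its probe set read 3.19, 3.69, 3.48 and 6.67 at 0 min, 3.75, 4.01 and 3.69 at 30 min, 5.34, 5.17 and 4.61 at 6 h, and 3.99, 4.54 and 4.18 at 24 h. Replicate 4 of 0 min is the highest FOS value of the line, above all 6 h arrays, and the other 0 min arrays lie below every 6 h and 24 h array. The result therefore rests on that array. Because those other 0 min arrays lie under log2 4, no fold is given. With all 4 controls the change was 0.78 ± 0.64 at 6 h (adjusted p = 0.321) and -0.02 ± 0.64 at 24 h (adjusted p = 0.985, 95% interval -1.42 to 1.38). Without replicate 4, FOS rose by 1.59 ± 0.19 at 6 h (adjusted p = 1.19e-05) and by 0.78 ± 0.19 at 24 h (adjusted p = 0.00392). Against replicate 4 alone it fell by 1.63 at 6 h (change -1.63 ± 0.27, adjusted p = 0.00332).

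FOSL2 (FRA-2), a close relative of FOSL1 on chromosome 2 (28392858 to 28417317), read 9.94, 9.87, 10.04 and 10.47 at 0 min, 9.96, 9.91 and 9.94 at 30 min, 10.65, 10.69 and 10.68 at 6 h, and 10.28, 10.41 and 10.44 at 24 h. All 6 h arrays lie above all 0 min arrays, with replicate 4 the nearest. FOSL2 rose by 0.59 ± 0.13 at 6 h (adjusted p = 0.00336), 1.51-fold, and by 0.72 without replicate 4, while against replicate 4 alone the change was 0.20 ± 0.11 (adjusted p = 0.304). At 24 h it was 0.30 ± 0.13 (adjusted p = 0.0705) with all controls and 0.43 ± 0.08 (adjusted p = 0.000415) without replicate 4. FOSB, on chromosome 19 (45467996 to 45475179), encodes a FOS protein with a full activation domain. It read 6.01, 5.90, 5.97 and 6.07 at 0 min, 6.89, 6.47 and 6.30 at 30 min, 5.71, 5.83 and 5.74 at 6 h, and 6.04, 6.90 and 6.60 at 24 h. The 30 min arrays all lie above the 0 min arrays, but the change of 0.57 ± 0.18 did not pass over all genes (unadjusted p = 0.00853, adjusted p = 0.916). At 24 h FOSB rose by 0.53 ± 0.18 (adjusted p = 0.0334), although 1 of the 24 h arrays lies within the range of 0 min. That call was lost when any of replicates 1 to 3 of 0 min, or replicate 2 or 3 of 24 h, was left out, with adjusted p between 0.0549 and 0.172.

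JUN, a main partner of FOS proteins on DNA, lies on chromosome 1 (58780791 to 58784047). Its leading probe set read 9.96, 10.01, 9.93 and 10.30 at 0 min, 9.66, 9.60 and 9.57 at 30 min, 9.44, 9.34 and 9.39 at 6 h, and 9.15, 9.17 and 9.27 at 24 h. On this probe set every array of each later time lies below every 0 min array, and the group means step down with time. The change was -0.44 ± 0.10 at 30 min (unadjusted p = 0.000598, adjusted p = 0.576), -0.66 ± 0.10 at 6 h (adjusted p = 0.000524) and -0.85 ± 0.10 at 24 h (adjusted p = 1.8e-05), 1.81-fold lower. JUN was also lower at 6 h against replicate 4 alone, by -0.91 ± 0.10 (adjusted p = 0.000203). JUNB, on chromosome 19 (12791486 to 12793315) and in many settings a weaker activator than JUN, read 9.85, 9.89, 10.02 and 10.17 at 0 min, 9.71, 9.53 and 9.57 at 30 min, 9.86, 9.76 and 9.86 at 6 h, and 10.33, 10.38 and 10.35 at 24 h. Its 30 min arrays lie under all 0 min arrays (change -0.38 ± 0.09, unadjusted p = 0.00142, adjusted p = 0.712), and its 24 h arrays above them. JUNB rose by 0.37 ± 0.09 at 24 h (adjusted p = 0.00641), 1.29-fold. JUND, also on chromosome 19 (18279694 to 18281622), is the JUN gene most steadily expressed in resting cells. It read 12.28, 12.16, 12.27 and 12.04 at 0 min, 12.13, 12.14 and 12.16 at 30 min, 12.05, 11.89 and 12.14 at 6 h, and 12.59, 12.55 and 12.45 at 24 h. Its 24 h arrays lie above all others of BT20, and JUND rose by 0.34 ± 0.09 (adjusted p = 0.0089), 1.27-fold. At 6 h its change was -0.16 with all controls (adjusted p = 0.155) and -0.21 without replicate 4 (adjusted p = 0.0447). Over the JUN family, then, JUN was lower while both relatives were higher at 24 h.

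MAFF, on chromosome 22 (38201994 to 38216511), is the small MAF gene known for induction by growth factors and stress. It read 11.29, 11.11, 11.33 and 11.04 at 0 min, 11.19, 11.04 and 11.03 at 30 min, 9.45, 9.54 and 9.86 at 6 h, and 9.57, 9.62 and 9.59 at 24 h. The 6 h and 24 h arrays lie more than 1 log2 unit below every earlier array, replicate 4 included. MAFF fell by 1.58 ± 0.11 at 6 h (adjusted p = 2.51e-06), 2.99-fold, and by 1.60 ± 0.11 at 24 h (adjusted p = 3.05e-07), 3.03-fold. Against replicate 4 alone, the 6 h change was -1.42 ± 0.15 (adjusted p = 0.00011). MAFG, on chromosome 17 (81918270 to 81931244), read 8.89, 8.83, 8.79 and 8.38 at 0 min, 8.868, 8.602 and 8.992 at 30 min, 8.63, 8.74 and 8.52 at 6 h, and 9.16, 9.38 and 9.40 at 24 h. Only its 24 h arrays stand clear of the others. MAFG rose by 0.59 ± 0.14 at 24 h (adjusted p = 0.00426), 1.51-fold, and by 0.47 ± 0.11 without replicate 4 (adjusted p = 0.00255), so that MAFF was lower and MAFG higher at that time.

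**Figure D2:**
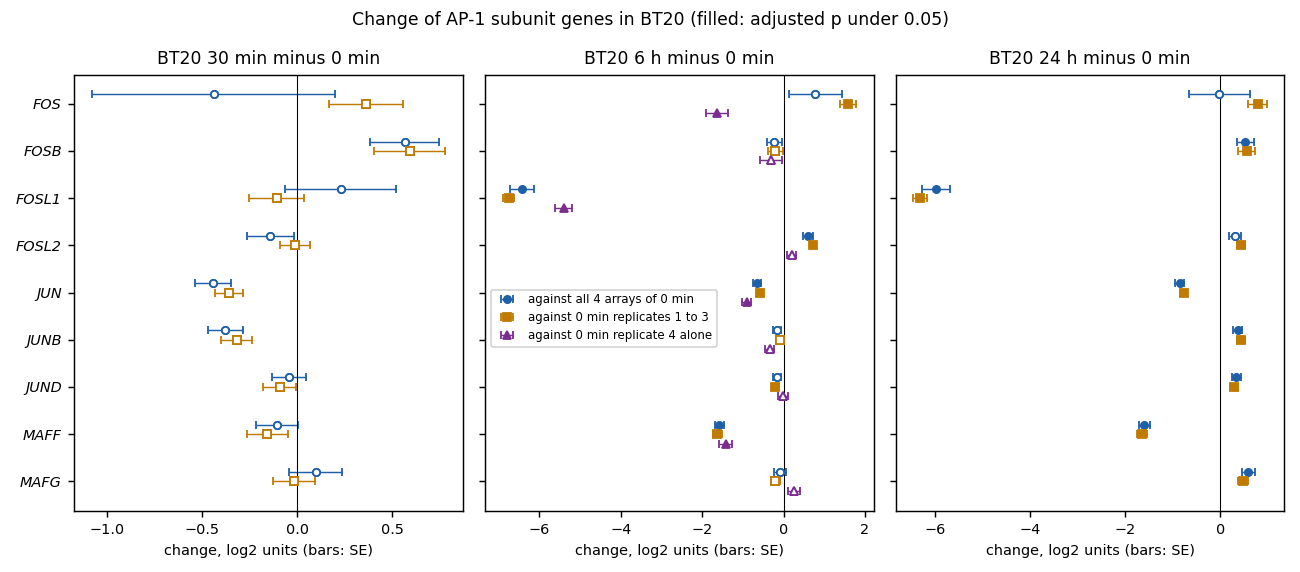
Change of each subunit gene in BT20 (log2 units, horizontal axis, different range per panel) at 30 min, 6 h and 24 h, with SE, against all 4 arrays of 0 min, against replicates 1 to 3 and, at 6 h, against replicate 4 alone. Filled symbols passed an adjusted p of 0.05. FOSL1, JUN and MAFF are filled on the negative side at 6 h under all sets of controls, and FOS at 6 h lies at 1.59 against replicates 1 to 3 and at -1.63 against replicate 4.

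Counts depended on replicate 4 as follows. With all 4 controls, 1 gene was higher and 3 were lower at 6 h, and 4 were higher and 3 lower at 24 h. Without replicate 4, 2 were higher and 4 lower at 6 h, where 66.5% of all genes were called, and 6 were higher and 3 lower at 24 h, where 55.5% were. Against replicate 4 alone, 4 were lower and 0 higher at 6 h, where 3.61% of all genes were called lower and 3.62% higher. These were FOS, FOSL1, JUN and MAFF. Of them FOSL1, JUN and MAFF were lower at 6 h under every set of controls, and at 24 h both with all 4 controls and without replicate 4. The groups did not overlap for 5 of 9 genes at 6 h and 6 of 9 at 24 h, against 44.2% and 45.6% of all genes. At 30 min they did not overlap for FOSB, JUN and JUNB, 3 of 9, against 3.66% of all genes, and these 3 also had an unadjusted p under 0.05, as did 498 genes in all.

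The 250 bases before the annotated start of JUN, JUND and MAFF are shown because these are the members with a CRE-like match, to which JUN and ATF proteins can bind. They were read from RefSeq promoters (GRCh38.p14) and are printed 5′ to 3′ on the gene's strand. The capitals mark the matches to TGANNTCA.
JUN: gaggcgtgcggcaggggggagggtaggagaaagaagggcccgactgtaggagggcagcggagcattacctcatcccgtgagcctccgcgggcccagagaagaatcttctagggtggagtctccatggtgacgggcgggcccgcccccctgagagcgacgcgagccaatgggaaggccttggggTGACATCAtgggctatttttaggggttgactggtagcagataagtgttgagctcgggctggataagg
JUND: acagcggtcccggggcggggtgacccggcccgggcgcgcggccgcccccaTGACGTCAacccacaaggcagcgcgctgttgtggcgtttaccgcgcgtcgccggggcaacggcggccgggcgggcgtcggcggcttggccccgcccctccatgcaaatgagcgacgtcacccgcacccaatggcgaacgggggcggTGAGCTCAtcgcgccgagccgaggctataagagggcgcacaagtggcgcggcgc
MAFF: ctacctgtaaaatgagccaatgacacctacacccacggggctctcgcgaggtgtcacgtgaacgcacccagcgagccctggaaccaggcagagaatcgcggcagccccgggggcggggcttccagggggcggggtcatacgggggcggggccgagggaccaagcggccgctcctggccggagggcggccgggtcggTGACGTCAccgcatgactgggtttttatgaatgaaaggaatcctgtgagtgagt
The JUN stretch is chr1:58784048-58784297 on the minus strand, that of JUND is chr19:18281623-18281872 on the minus strand, and that of MAFF is chr22:38201744-38201993 on the plus strand. TGACATCA of JUN begins 67 bases before the start, TGACGTCA of MAFF 54 bases before it, and TGACGTCA and TGAGCTCA of JUND 200 and 54 bases before it. The 3 genes with this motif include both JUN and MAFF, which were lower in BT20, and JUND, which was higher at 24 h. The search covered both strands of windows of 250 bases before and 50 after the start, of which 8 members had 1 or more. TGANNTCA was found in windows of 3 members and in 11.5% of all 35116 windows. TGANTCA, the TRE form, was found in 1 member, FOSL2, where TGACTCA begins at position 5 after the start, and in 7.71% of all windows. Neither pattern contains the other. A CArG box, the site of the factor SRF, was found in the windows of 0 members and in 1.29% of all windows. Bases further upstream than 250 were not searched, so a site there would be missed. A match is a description of the letters in these windows, not a measured site.

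The other probe sets of the same genes were read in a fit over all 24585 probe sets with 1 symbol. Of the 21 probe sets, 9 were called at 6 h, 2 higher and 7 lower, where 48.2% of all were. At 24 h 12 were called, 5 higher and 7 lower, where 39% of all were. All 4 JUN probe sets were called lower at both times, at -0.66 to -2.54 at 6 h. The leading one carries the suffix that marks possible matches to other genes, and 201465_s_at had the largest 6 h change, -2.54 ± 0.32 (adjusted p = 0.000288). That probe set read 9.75, 10.05, 9.54 and 8.25 at 0 min, 6.80, 6.85 and 6.92 at 6 h, and 8.40, 8.39 and 8.28 at 24 h, so replicate 4 lies between the other 0 min arrays and the 6 h arrays. Its 24 h arrays lie above its 6 h arrays and slightly above replicate 4, so it lacks the step down with time of the leading probe set. Both MAFF probe sets were called lower, and 205193_at changed by -1.63 ± 0.10 at 6 h and -1.66 ± 0.10 at 24 h. Both MAFG probe sets were called higher at 24 h, at 1.01 ± 0.17 for 224466_s_at (adjusted p = 0.000424). The probe sets of FOSL2 and JUND disagreed within each gene. For FOSL2, 225262_at rose by 1.72 ± 0.38 at 6 h (adjusted p = 0.00514), but its change against replicate 4 alone was 0.28 ± 0.17 (adjusted p = 0.417). Its array values were 8.141, 8.182, 8.503 and 10.199 at 0 min and 10.56, 10.38 and 10.49 at 6 h. The remaining 3 FOSL2 probe sets were not called at either time, with changes from -0.31 to 0.29. The 3 probe sets of JUND other than the leading one averaged 3.92 to 4.55 over all arrays and were not called, with changes from -0.25 to 0.14.

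**Figure D3:**
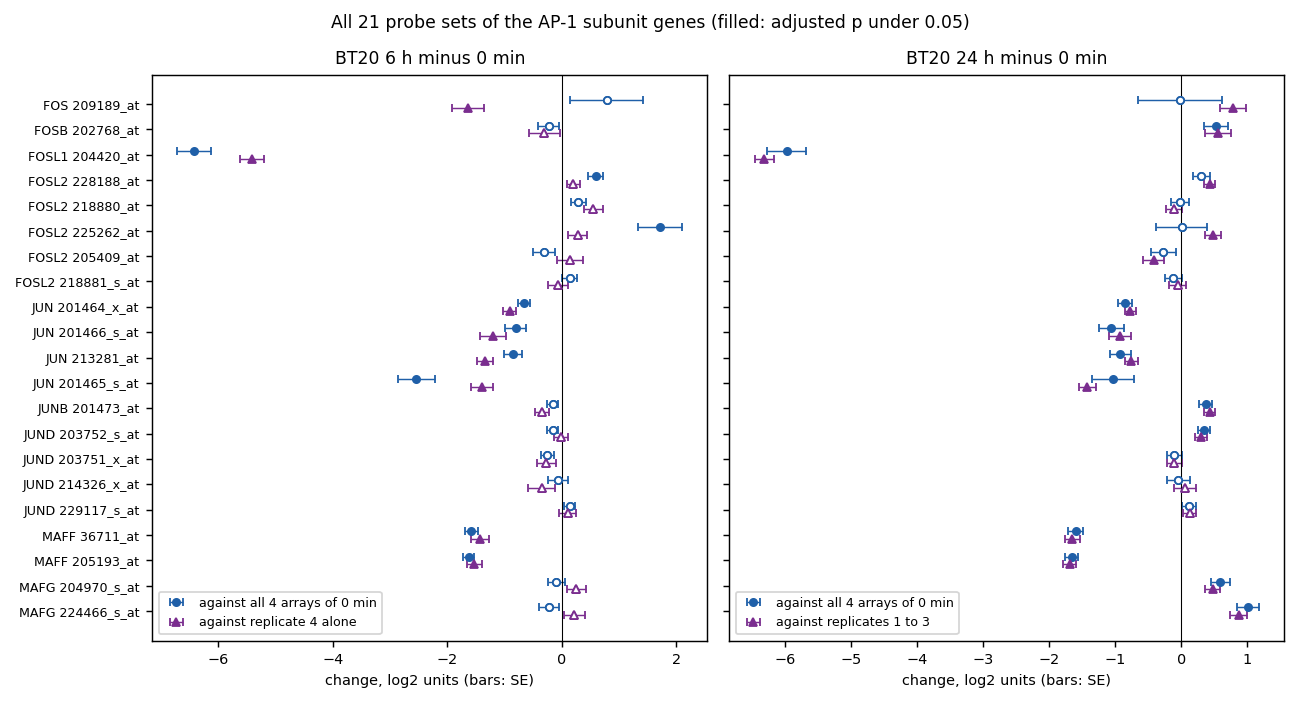
Change of all 21 probe sets in BT20 (log2 units, horizontal axis) at 6 h and 24 h with SE, against all 4 arrays of 0 min and, in triangles, against replicate 4 alone (6 h) or replicates 1 to 3 (24 h). Filled symbols passed an adjusted p of 0.05 over 24585 probe sets. The 4 JUN and 2 MAFF probe sets are negative and filled in both panels, while 225262_at of FOSL2 lies at 1.72 at 6 h against all 4 arrays and at 0.28 against replicate 4.

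In MDA-MB-453, FOSL2 alone of the 9 genes passed the test at 24 h, where 8.3% of all genes were called, 5.66% higher. FOSL2 read 9.39, 9.17 and 9.59 at 24 h, against 8.92, 8.62 and 8.65 at 0 min, without overlap. It rose by 0.66 ± 0.14 (adjusted p = 0.04), 1.58-fold, and the call was lost without any 1 of 5 of the 6 arrays (adjusted p 0.0671 to 0.141), the exception being replicate 2 of 24 h. It was also lost with no filter and when every probe set was fitted. The change in the mean over its probe sets was smaller, at 0.22 (adjusted p = 0.249), and 225262_at and 205409_at had changes of -0.15 and -0.32, neither of them called. MAFG read 6.70, 6.30 and 6.55 at 24 h, against 6.08, 6.03 and 5.99 at 0 min (change 0.48 ± 0.12, adjusted p = 0.0642). MAFF read 7.06, 6.87 and 7.15 at 24 h, against 7.78, 7.66 and 7.21 at 0 min (change -0.52 ± 0.17, adjusted p = 0.114). These groups did not overlap either, but neither gene passed. Non-overlap was found for 4 of 9 genes, against 30.2% of all genes. FOSL1 read 2.30, 2.48 and 2.06 at 24 h, against 2.37, 1.91 and 2.40 at 0 min. FOS and FOSB lay under log2 4 on all 6 arrays as well. JUN, JUNB and JUND had changes of -0.16, 0.09 and 0.01, with adjusted p from 0.444 to 0.955.

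In MCF, 0 of the 9 genes passed the limma test at 24 h, where 0.00791% of all genes were called and 736 had an unadjusted p under 0.05. FOSL1 read 2.31, 2.29 and 2.98 at 24 h, against 5.30, 3.63 and 4.62 at 0 min. The groups do not overlap, and the change was -1.99 ± 0.45 (unadjusted p = 0.00441, adjusted p = 0.389). FOS read 5.93, 8.46 and 6.17 at 24 h, against 4.29, 4.93 and 4.44 at 0 min, also without overlap, and the change was 2.30 ± 0.68 (unadjusted p = 0.0146, adjusted p = 0.608). MAFF read 6.52, 6.30 and 7.19 at 24 h, against 8.13, 7.16 and 7.56 at 0 min, and the change was -0.95 ± 0.34 (unadjusted p = 0.0309, adjusted p = 0.734). The spread was wider here: the median residual SD of a gene was 0.316 in MCF, 0.169 in MDA-MB-453 and 0.195 in BT20. Non-overlap was found for FOS, FOSL1, JUN and JUND, 4 of 9, against 11.8% of all genes. For JUND it was marginal, with a lowest 24 h array of 13.270, a highest 0 min array of 13.269 and a change of 0.13. JUN read 10.72, 10.73 and 10.60 at 24 h, against 10.45, 10.46 and 10.47 at 0 min (change 0.22 ± 0.14, adjusted p = 1).

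The 24 h change of BT20 was set against that of each other line by testing the difference itself. FOSL1 differed from MDA-MB-453 by -6.04 ± 0.39 (adjusted p = 1.2e-08) and from MCF by -3.99 ± 0.53 (adjusted p = 6.64e-05). JUN differed by -0.70 ± 0.14 from MDA-MB-453 (adjusted p = 0.00174) and by -1.08 ± 0.15 from MCF (adjusted p = 8.58e-05). Both changes were thus more negative in BT20 than in either other line. However, FOSL1 lay under log2 4 on every MDA-MB-453 array. Its mean at 0 min was 4.52 in MCF, against 10.83 in BT20. A fall as large as that of BT20 could not have been measured in either, so response and starting level cannot be told apart for FOSL1. MAFF differed from MDA-MB-453 by -1.08 ± 0.19 (adjusted p = 0.000657), whereas its difference from MCF was -0.65 ± 0.31 (adjusted p = 0.209, 95% interval -1.31 to 0.01). That difference passed the test with the mean of probe sets, at -0.94 (adjusted p = 0.0124), with quantile normalization repeated and without replicate 1 of MCF 0 min (adjusted p = 0.0404). FOSB differed from MDA-MB-453 by 0.78 ± 0.24 (adjusted p = 0.0288), a call lost without replicate 2 or 3 of BT20 24 h, replicate 1 or 3 of MDA-MB-453 24 h or replicate 2 of MDA-MB-453 0 min (adjusted p up to 0.087). It was also lost with quantile normalization repeated, at 0.61, and when all 25 arrays shared a fit (adjusted p up to 0.128). MAFG differed from MCF by 0.94 ± 0.25 (adjusted p = 0.0183), and its adjusted p was 0.0835 with array weights per line, which allow the lines unequal spread, and up to 0.0558 without replicate 3 of BT20 24 h or replicate 3 of MCF 0 min. In all, 4 genes differed from MDA-MB-453, 1 upward and 3 downward, where 21.8% of all genes did (11.4% upward, 10.4% downward). From MCF 3 differed, 1 upward and 2 downward, where 13.4% of all genes did (8.53% upward, 4.92% downward). In simulated data 40.4% of the calls on the difference from MCF were false, and 10.2% of those on the difference from MDA-MB-453. With array weights per line, 41.2% of the calls on the difference from MCF were false there. Of simulated differences of 1 log2 unit from MCF, 41% were recovered as reported and 17% with the weights. Without replicate 4 of BT20 0 min, where 32.9% of all genes differed, FOS and JUNB also differed from MDA-MB-453, by 0.96 ± 0.27 (adjusted p = 0.0111) and 0.34 ± 0.13 (adjusted p = 0.0464). For the difference of FOSL2 between BT20 and MDA-MB-453 the estimate was -0.35 with a 95% interval of -0.76 to 0.05, so the FOSL2 call in MDA-MB-453 was not shown to be particular to that line.

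**Figure D4:**
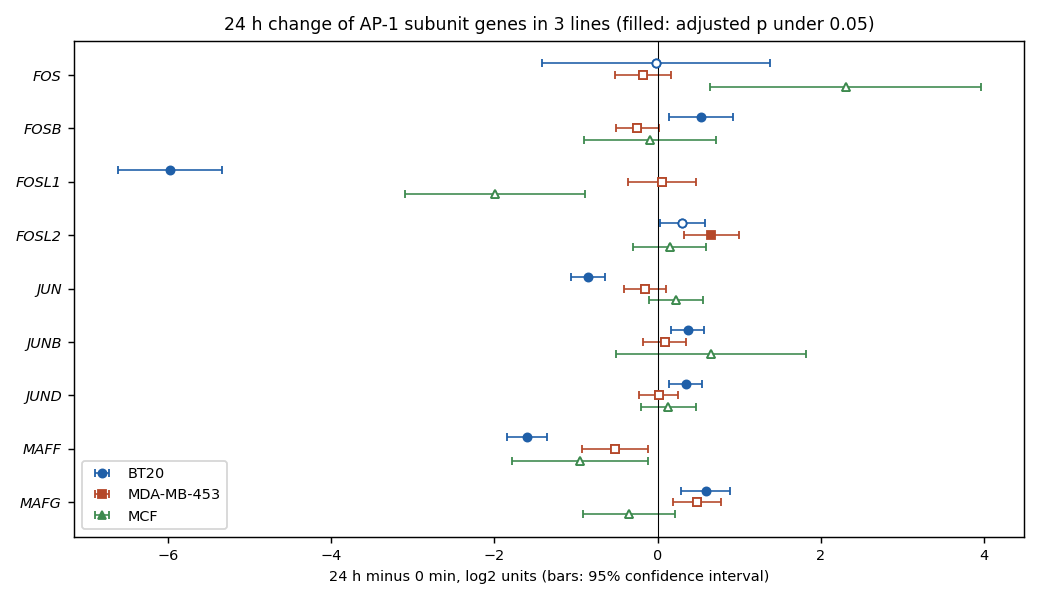
Change of each subunit gene at 24 h (24 h minus 0 min, log2 units, horizontal axis) in the 3 lines, with 95% confidence intervals. Filled symbols passed an adjusted p of 0.05 within the line. FOSL1 lies at -5.98 in BT20, 0.06 in MDA-MB-453 and -1.99 in MCF, with the widest intervals in MCF.

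Levels were ordered within the arrays of BT20 and MDA-MB-453, and apart from these within MCF, because the 75th percentile of the arrays was 7.65 to 7.81 in the first set and 7.27 to 7.32 in the second. FOSL1 was highest in BT20 at 30 min and 0 min, 2 groups with overlapping ranges, followed without overlap by BT20 at 24 h and 6 h, which overlap, and by both MDA-MB-453 groups, which overlap. MAFF was highest in BT20 at 0 min and 30 min, which overlap, then in BT20 at 6 h and 24 h, which overlap, then in MDA-MB-453 at 0 min and last at 24 h, without overlap. Its means were 11.2 ± 0.14 at 0 min (SD, n = 4) and 9.61 ± 0.21 at 6 h (SD, n = 3), against 7.55 ± 0.30 in MDA-MB-453 at 0 min (SD, n = 3). MAFG was above 8.3 on every BT20 array and under 6.8 on every MDA-MB-453 array. JUN at 6 h in BT20 (mean 9.39) overlapped with MDA-MB-453 at 24 h and 0 min (9.28 and 9.43), and JUN at 24 h in BT20 (9.20) with MDA-MB-453 at 24 h, below BT20 at 0 min (10.05). JUNB at 24 h in BT20 (10.4) likewise overlapped with MDA-MB-453 at 0 min (10.4). JUND stayed between 12.03 and 12.53 in the means of these 6 groups.

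Over the 13 BT20 arrays the pattern of FOSL1 was most like that of TNS4 (Pearson r = 0.9975), MFSD2A (0.9929) and MYEOV (0.9921). MAFF was most like PTGER4 (0.9935), FOSL1 (0.9888) and STAMBPL1 (0.9872), and JUN most like LIF (0.9684), ENC1 (0.9412) and ZFP36L2 (0.933). FOSL2 was most like ZKSCAN3 (0.9918), METTL4 (0.9881) and CEP44 (0.988), FOS most like ERI1 (0.9578), and MAFG most like DLX3 (0.9661). For JUND, JUNB and FOSB the nearest genes were ZNF358 (0.9703), PRKCH (0.9264) and BAX (0.8459). Among the subunit genes, FOSL1 correlated at 0.9888 with MAFF, at 0.7715 with JUN and at -0.8753 with FOSL2. These values describe 13 arrays in 4 time groups that include replicate 4, and they mix differences between groups with spread inside them.

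Other members of the bZIP network, which pair with AP-1 or small MAF proteins or bind the same sites, were more often higher than lower in BT20. They were listed with earlier results of these data known, so their counts only describe the listed genes. Of 11 tested of 16 on the array, 7 were higher and 2 lower at 6 h, beside 26.1% and 25.9% of all genes. At 24 h 7 were higher and 1 lower, beside 24.1% and 18.3% of all genes. The median change was 0.43 at 24 h, beside 0.03 over all genes. MAF, a large MAF protein with an activation domain, averaged 8.06 ± 0.24 at 24 h (SD, n = 3), against 4.94 ± 0.14 at 0 min (SD, n = 4), and rose by 3.12 ± 0.18 (adjusted p = 6.58e-08). JDP2, a JUN partner that represses AP-1 sites, rose by 1.54 ± 0.23 (adjusted p = 0.000149). NFE2L1, a CNC factor that pairs with small MAF proteins, rose by 0.63 ± 0.12 (adjusted p = 0.00101). The gene that fell at 24 h was NFE2L3, another CNC factor, which averaged 6.61 ± 0.10 at 24 h (SD, n = 3), against 10.1 ± 0.30 at 0 min (SD, n = 4), a change of -3.46 ± 0.16 (adjusted p = 1.02e-08). ATF3, a stress-induced partner of JUN, rose by 1.87 ± 0.31 at 6 h (adjusted p = 0.00111) and by 0.76 against replicate 4 alone (adjusted p = 0.0316). Against that array the median change of the 11 at 6 h was 0.30, beside 0.01 over all genes. ATF3 and MAF also rose in MDA-MB-453 at 24 h, by 1.33 ± 0.12 (adjusted p = 0.0038) and 1.57 ± 0.22 (adjusted p = 0.0109). These were the 2 of 11 called there, where 8.3% of all genes were called, 5.66% higher.

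Of the kinases and factors that act on AP-1 genes, 16 were tested, with 2 higher and 3 lower at 6 h, where 52% of all genes were called, and 3 higher and 3 lower at 24 h, where 42.4% were. Without replicate 4, 3 were higher and 7 lower at 6 h, where 66.5% of all genes were called. The 16 genes had a median 6 h change of -0.11 with all 4 controls and 0.05 against replicate 4 alone. Over all genes these medians were -0.01 and 0.01. SRF, which drives FOS through the CArG box, fell by 1.10 ± 0.12 at 6 h (adjusted p = 9.85e-05) and by 1.08 against replicate 4 alone (adjusted p = 0.00288), whereas at 24 h it rose by 0.45 ± 0.12 (adjusted p = 0.00968). MAPK10, the JNK3 kinase, averaged 5.80 ± 0.11 at 24 h (SD, n = 3), against 2.89 ± 0.25 at 0 min (SD, n = 4), a change of 2.90 ± 0.14 (adjusted p = 1.3e-08). MAPK8 (JNK1), a kinase that phosphorylates JUN, fell by 0.51 ± 0.09 (adjusted p = 0.000653), and MAPK3 (ERK1) rose by 0.81 ± 0.15 (adjusted p = 0.000897).

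Genes described as AP-1 targets were more often lower than higher in BT20. The list was chosen with earlier results of these data known, so its counts only describe the listed genes. Of 16 tested of 21, 1 was higher and 7 were lower at 6 h, where 26.1% of all genes were higher and 25.9% lower. At 24 h 1 was higher and 11 were lower, where 24.1% of all genes were higher and 18.3% lower, with a median change of -0.65 beside 0.03 over all genes. Against replicate 4 alone, the median change of the 16 at 6 h was -0.26, beside 0.01 over all genes. AXL, a receptor tyrosine kinase, averaged 3.98 ± 0.25 at 24 h (SD, n = 3), against 9.05 ± 0.22 at 0 min (SD, n = 4), and changed by -5.07 ± 0.14 (adjusted p = 2.51e-10). HBEGF, a ligand of EGFR, averaged 3.65 ± 0.27 at 24 h, against 7.34 ± 0.25 at 0 min (SD, n = 3 and 4), and changed by -3.69 ± 0.19 (adjusted p = 2.44e-08). CCND1, cyclin D1, fell by 1.14 ± 0.08 and PLAUR, the urokinase receptor, by 1.27 ± 0.15 (adjusted p = 2.07e-07 and 2.21e-05). At 6 h the 4 leading genes were CCND1, HBEGF, IVL and PLAUR, with changes of -1.26, -2.77, -2.73 and -1.38, and the 1 higher was VEGFA, at 0.69. IVL, a cornified envelope protein of keratinocytes, was the 1 gene higher at 24 h, by 1.40 ± 0.26 (adjusted p = 0.000864), and it, VEGFA and EMP1 are named after their values were seen. Of the 16, 0 were called in MDA-MB-453, where 8.3% of all genes were, and 0 in MCF, where 0.00791% of all genes were. The 24 h change in BT20 was lower than in MDA-MB-453 for 6 of them and higher for 1, IVL, beside 10.4% and 11.4% of all genes. It was lower than in MCF for 4 and higher for 2, IVL and EMP1, beside 4.92% and 8.53% of all genes.

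**Figure D5:**
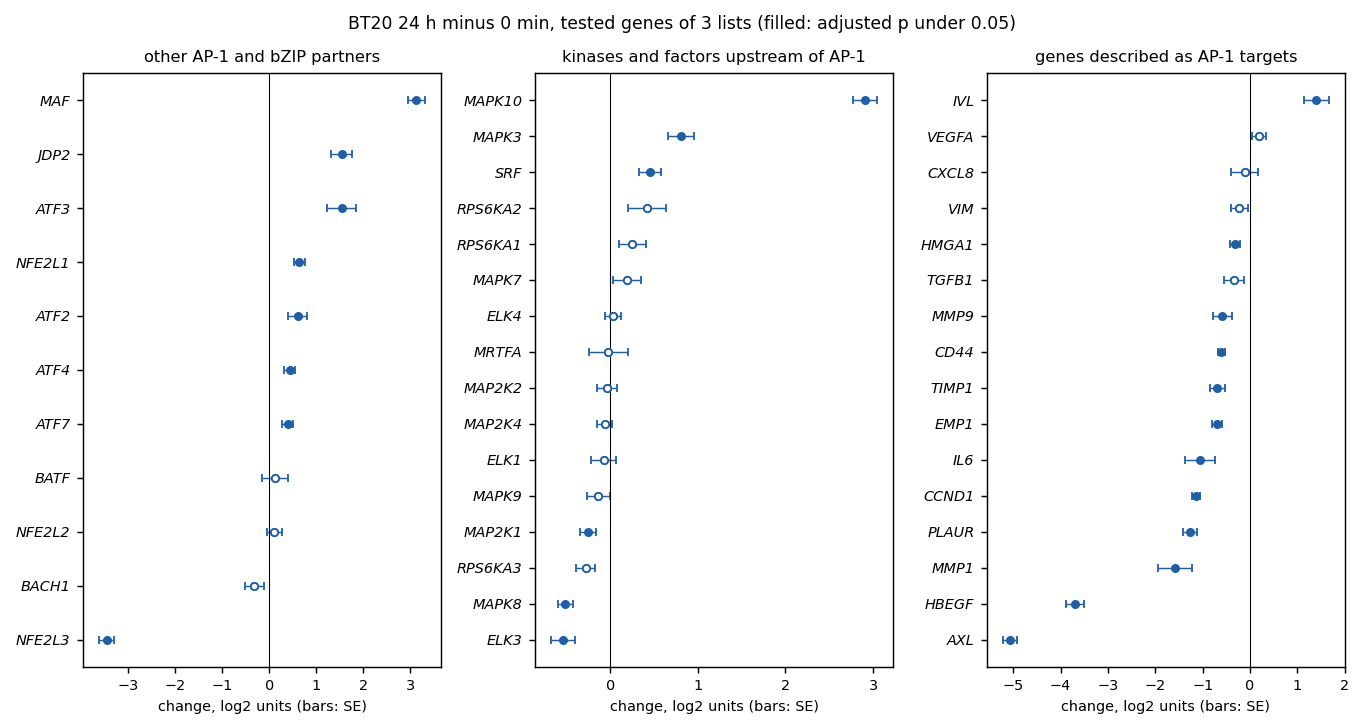
Change at 24 h in BT20 (24 h minus 0 min, log2 units, horizontal axis, with SE) of the tested genes of the 3 lists. Filled circles passed an adjusted p of 0.05 over 12643 genes. MAF (3.12) and NFE2L3 (-3.46) are the extremes of the first panel, and 11 of the 16 genes described as AP-1 targets are filled on the negative side.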

How the data were processed

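RNA of 25 samples had been hybridised to Affymetrix HG-U133 Plus 2 arrays. The deposited values are log2 intensities per probe set, made by the authors with GCRMA 2.20.0 in R 2.11.1, per the submitters' processing notes. GCRMA models a sequence-dependent background and removes it. The size of a fold change that reaches values near the low end is uncertain. Probe sets were named from the platform annotation, with symbols updated through gene IDs. Of 54613 probe sets, 41091 had 1 symbol, 1801 several and 11721 none. Testing required 3 or more arrays with a log2 value over 4. Group means were fitted with limma 3.58.1 in R 4.3.3, per line, and over the arrays of both lines for a difference between lines. P-values are two-sided and adjusted by Benjamini-Hochberg over 12643 genes. The fits were tested on simulated data with 200 changed genes. Of the calls made there, 4.76% to 8.78% were false within BT20, 1.82% in MDA-MB-453 and 5.75% in MCF. For the difference of 24 h changes, 10.2% were false between BT20 and MDA-MB-453. Between BT20 and MCF 40.4% were false, so calls on that difference are less secure than their adjusted p. The number of arrays limits the precision. Named genes are the 9 members, up to 4 called genes per list and comparison with the smallest p, and up to 3 genes with the most similar pattern per member. The members and lists were chosen with earlier results of these data known. Replicate numbers are shared between groups, but 4 of 18 pairs in BT20, 1 of 3 in MDA-MB-453 and 1 of 3 in MCF deviated together (r over 0.1), so they were not used as a block. Alternatives covered the filter, normalization, probe set choice, variance model and single arrays. No genome and no FOSL1 promoter were used here.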

Additional observations from a re-analysis of the deposited data

Results flagged for a closer look

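In the BT20 0 min group, replicate 4 was the highest array for FOS, at 6.668 log2 units, and its gap to the next array was 0.8544 of the group's range. Replicate 4 was also the lowest array for FOSL1, at 9.813, with a gap of 0.9632 of the range. Both pass Dixon's 95% critical value of 0.829 for 4 arrays. Of the 21 probe sets examined, 2 passed, and chance passes about 1 in 20. The same array resembled the 6 h arrays over all genes, and FOS was higher at 6 h without it and lower against it alone.

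The 24 h change differed between lines for the following genes, by a test of the difference itself. Between BT20 and MDA-MB-453 the differences were -6.04 for FOSL1, -1.08 for MAFF, -0.70 for JUN and 0.78 for FOSB. Between BT20 and MCF they were -3.99 for FOSL1, -1.08 for JUN and 0.94 for MAFG. FOSL1 lay under log2 4 on all arrays of MDA-MB-453, at 24 h and at 0 min, and averaged only 4.52 in MCF at 0 min. With array weights per line, the adjusted p of the MAFG difference was 0.0835.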

How the results depend on the processing

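The main limits are replicate 4 of BT20 0 min, the absence of cultures kept for 24 h without drug, and the wide spread in MCF. FOSL1, JUN and MAFF kept their direction and their calls in BT20 at 6 h and 24 h in all alternatives run. FOS reversed: its 6 h change was -1.63 with a term shared by 6 h and replicate 4, and its 24 h change was 0.78 under that term, without replicate 4 of BT20 0 min and with the replicate block, against -0.02 as reported, with -0.38 to 0.78 when 1 array was left out. The number of subunit genes called in MDA-MB-453 was 1, and it was 0 with no filter, with the mean of probe sets, with every probe set fitted and with the replicate block, 2 with quantile normalization repeated, and 0 to 2 when 1 array was left out. In MCF it was 0, and 2 when all 25 arrays shared a fit (FOSL1 adjusted p = 0.00219, MAFF 0.017). Leaving out 1 array gave 4 to 6 called genes in BT20 at 6 h, where 38.8% to 66.5% of all genes were called. At 24 h it gave 6 to 9, where 35.2% to 55.5% were. For the difference from MDA-MB-453 it gave 3 to 6, where 17.9% to 32.9% were. For that from MCF it gave 2 to 4, where 10.1% to 20% were. The replicate block gave 0 called genes in BT20 at 30 min. At 6 h it gave 5 and at 24 h 9, where 65.4% and 53.9% of all genes were called. For the differences from MDA-MB-453 and MCF it gave 5 and 4, where 29.6% and 23.2% were, and within MCF 0. Calls lost in BT20 were FOSL2 at 6 h with the shared term (0.20, adjusted p = 0.304), JUND at 24 h with the mean of probe sets (0.08, adjusted p = 0.479), FOSB at 24 h with quantile normalization (0.33, adjusted p = 0.197), and FOSB and JUNB at 24 h when all 25 arrays shared a fit (adjusted p = 0.074 and 0.305). Over all genes, 6579 were called at 6 h, against 914 with the shared term and 8409 without replicate 4. In MDA-MB-453 1049 were called, against 3 with the block, and in MCF 1, against 404 with all 25 arrays in a fit. The cause of these shifts was not tested.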
